A study of Mus musculus with 12 samples.

Results

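Upper hair follicle wells are single epidermal cells in which Krt79, Krt17 and Cst6 together gave at least 3 counts and at least 1% of the well's counts. The rule found 99 such wells among the 1906 wells of the old and young plates that held at least 100 counts, out of 2220 wells in all 12 plates, and the 1807 remaining wells of the same plates served as the comparison. Each count is a ribosome footprint, the stretch of messenger RNA that a ribosome shields from nuclease, assigned to a gene. The cells came from trypsin-treated back skin epidermis of female C57BL/6 mice, all of which received cycloheximide, a drug that stalls ribosomes, through the tail vein before death. Animals are named by age in postnatal days: the old mice were P662, P722 and P758, and the young mice P57, P59 and P60 (3 per age, with no transgene or mutation named in the labels). It was assumed that plates with the same day came from the same mouse. Another P758 plate had wells digested with various nucleases and amounts, and a further plate held Sca-1-negative cells of P57 and P679 mice, both after the same cycloheximide treatment. No matched messenger RNA counts were used, so a value joins the amount of a messenger RNA with its translation, and fewer positive cells in a sum cannot be told apart from less footprint per cell.

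The upper hair follicle, the stretch between the skin surface and the bulge, comprises the infundibulum, junctional zone and isthmus. Its inner lining cells make Krt79, a keratin of the migrating column that opens the hair canal, and the region is known for Lrig1, Plet1 and Gata6 in mouse. Krt17 is a keratin of follicle and other appendage epithelia, and Cst6 encodes cystatin E/M, an inhibitor of the proteases that act in cornification and hair formation. Basal interfollicular cells instead rest on a laminin-rich basement membrane and use Krt5 and Krt14, while spinous cells above them switch to Krt1 and Krt10.

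Krt79 lies at chr15:101929332-101940324, Krt17 at chr11:100256215-100261029 and Cst6 at chr19:5344705-5349574, and Defb6, a beta-defensin that the rule did not use, at chr8:19225478-19228209 (RefSeq, GRCm38.p6). The 250 bases before the annotated start are shown for Krt79, the gene that led most of the wells, and for Defb6, the gene with the largest positive difference in the 82-gene fit below. Capitals mark AGATAA on either strand, a letter pattern of GATA factors, or TGANTCA, that of AP-1.
Krt79 (chr15:101940325-101940574, minus strand): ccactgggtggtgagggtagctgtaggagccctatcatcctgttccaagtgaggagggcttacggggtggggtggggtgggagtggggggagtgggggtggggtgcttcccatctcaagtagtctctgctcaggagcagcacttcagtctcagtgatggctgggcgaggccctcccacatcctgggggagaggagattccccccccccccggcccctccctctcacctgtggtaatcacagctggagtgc
Defb6 (chr8:19225228-19225477, plus strand): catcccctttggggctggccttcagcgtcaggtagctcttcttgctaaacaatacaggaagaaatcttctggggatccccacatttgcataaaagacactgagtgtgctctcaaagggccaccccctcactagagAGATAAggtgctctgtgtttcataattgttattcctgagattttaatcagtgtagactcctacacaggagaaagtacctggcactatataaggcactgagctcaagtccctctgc
The Defb6 stretch held 1 AGATAA, starting at -115 from the start, and no TGANTCA, whereas the Krt79 stretch held neither. Among 27025 promoters searched over the same 250 bases, 10.3% held AGATAA or its reverse complement and 6.87% held TGANTCA. Only these exact letters were searched, so the Krt79 stretch is not shown to lack other forms of a GATA pattern. A letter match is a description and shows no binding.

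The rule's genes were abundant in most of the 99 wells but not evenly so. Their joint share of a well's counts had a median of 2.83%, from 1.08% to 18.2%, which follows from the rule and is given as a description. Krt79 was counted in 88 wells, Krt17 in 86 and Cst6 in 47, and 42 wells had all 3. In 11 wells Krt17 was the only gene of the rule, and no well entered through Cst6, since Krt79 and Krt17 without it gave the same 99 wells. Just inside the limit the lowest 5 wells had 1.08% to 1.14%, and just outside it the highest well with 3 or more counts had 0.938%. Of the other wells, 104 had at least 3 counts but under 1%, and 4 had at least 1% but under 3 counts.

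**Figure D1:**
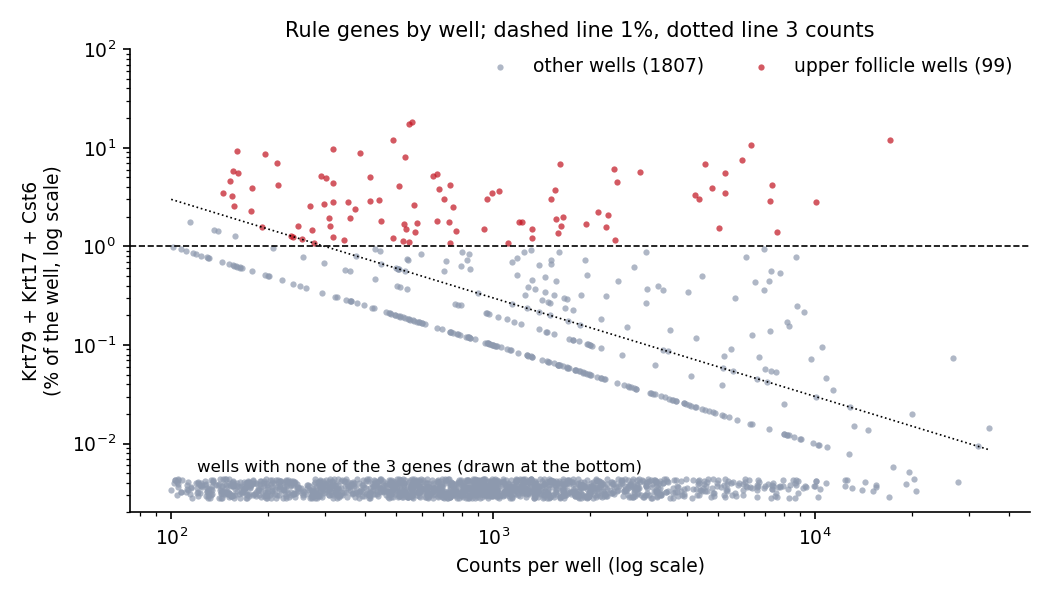
Share of counts from Krt79, Krt17 and Cst6 (percent, log scale) against counts per well (log scale), 1 point per well. The 99 upper follicle wells lie above both limits of the rule, and 1476 of the 1807 other wells had none of the 3 genes.

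The wells were spread over all 10 plates and all 6 animals. Among old animals they numbered 15 of 199 wells in P662, 7 of 38 in P722 and 25 of 627 in P758. Among young animals they numbered 3 of 13 wells in P57, 4 of 48 in P59 and 45 of 981 in P60. Summed counts were uneven, from 986 in P57 to 119738 in P60, so that P60 and P758 carried most of the depth. The median was 572 counts in upper follicle wells and 907 in other wells. The deepest well held 17059 counts, 14.2% of the upper follicle counts of P60, and another held 7328, 24.0% of those of P758. The plates used 384 well barcodes, of which 383 occurred in 2 or more plates. Upper follicle wells had 89 of the barcodes, and 9 of these marked an upper follicle well in 2 or more plates. Among wells and plates 0 pairs had identical counts, and over 20 plate pairs of 1 age the chi-square per degree of freedom was at least 1.45.

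The share of wells that met the rule did not separate old from young animals. The share was 7.54% in P662, 18.4% in P722 and 3.99% in P758, and 23.1% in P57, 8.33% in P59 and 4.59% in P60. The ages overlapped, with the widest 95% exact binomial interval, 5.04% to 53.8%, in P57, where 13 wells were kept. Old animals averaged 9.98% ± 7.52 (SD, n = 3) and young animals 12.0% ± 9.77 (SD, n = 3), a difference of -2.02 percentage points (two-sided exact permutation test, p = 0.6, where 0.1 is the smallest p that 3 against 3 can give). The sign of the difference turned when single animals were left out, to 0.980 without P758 and 3.52 without P57. The highest shares were in P57 and P722, which had the fewest wells. Thinning each well to 300 counts gave a difference of 0.864.

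**Figure D2:**
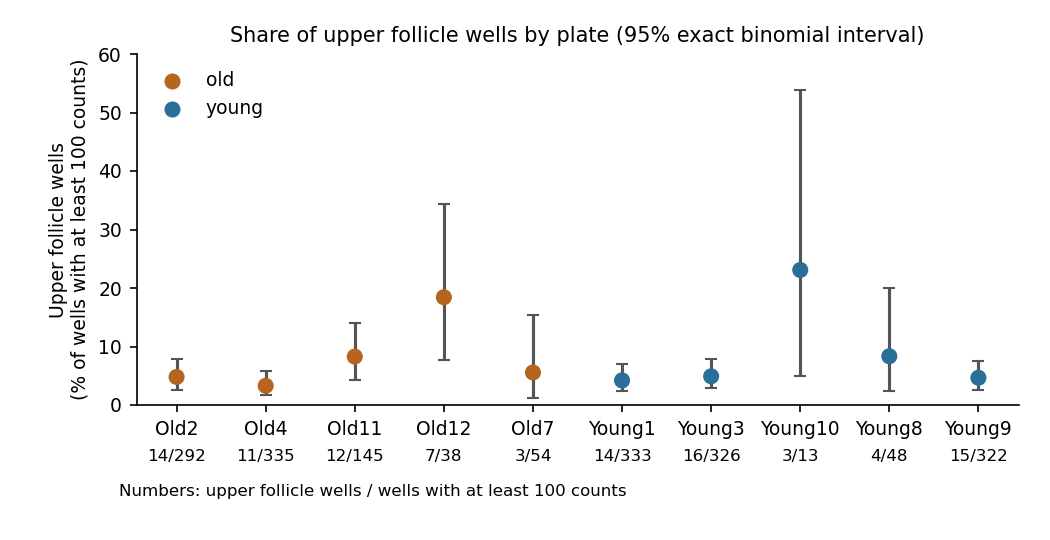
Percent of wells with at least 100 counts that met the rule, by plate, with 95% exact binomial intervals. The plates ranged from 3.28% in Old4 to 23.1% in Young10, and old and young plates overlapped.

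The other markers named for the upper follicle were mostly more abundant in these wells, although each was counted in a minority of them. Defb6, an antimicrobial peptide gene, was counted in 47 of 99 upper follicle wells and 29 of 1807 other wells. In wells thinned to 300 counts it was seen in 26% of 77 upper follicle wells and 0.682% of 1467 other wells, and in 0 of 31 unthinned T cell wells, which should lack it, at a median of 910 counts (exact upper limit 11.2%). Aldh3a1, an aldehyde dehydrogenase, was counted in 32 upper follicle wells and in 241 others, or 16.9% and 4.7% after thinning. Atp6v1c2, a subunit of the vacuolar proton pump, was counted in 36 and 39 wells. Gata6, a transcription factor of the upper follicle and sebaceous duct, was counted in 18 and 19, and Plet1, a surface protein of the junctional zone, in 19 and 122. Lrig1, a brake on growth factor receptors, was widespread, in 37 and 503 wells. Klk10 gave 2 counts in upper follicle wells against 57 in the others, and Teddm3 gave 0 and 1, so neither marked these wells. The 10 listed markers outside the rule together took 0.202% to 0.568% of the counts of upper follicle wells and 0.0264% to 0.0773% of those of other wells, higher in all 6 animals. Here and below, the total behind the share of a list lacks Krt79, Krt17 and Cst6.

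Markers of T cells, melanocytes, fibroblasts and endothelium were scarce in these wells, whereas several follicle markers outside the upper follicle list were not. Of 11 T cell genes in the files 9 were at 0, including Cd3e and Trdc, and the list took 0 to 0.101% of counts in upper follicle wells and 0 to 0.0943% in others. Cd207, the defining Langerhans gene, was at 0 against 24 counts in all other wells, and the class II genes H2-Aa, H2-Ab1 and H2-Eb1 were also at 0. The Langerhans list as a whole, which holds Epcam and Cd74, took 0.0443% to 0.156% in upper follicle wells and 0.0227% to 0.0707% in others, and was higher in all 6 animals. Sebaceous genes took 0 to 0.221% against 0.106% to 1.16%, with Scd1, a fatty acid desaturase, at 3 counts and 7 of 18 genes at 0. Their sum was higher in upper follicle wells in 3 of 6 animals. These were P60 (0.148% against 0.119%), P758 (0.180% against 0.154%) and P722 (0.221% against 0.106%). The 1.16% was the value of P57, on 49 counts. Of the inner bulge and companion layer, 5 of 8 genes were at 0, Krt75 among them with 5 counts in all other wells, and the list took 0 to 0.105% of counts against 0 to 0.0292%. Its sum was higher in upper follicle wells in 5 of 6 animals, on 0 to 19 counts per animal. The outer bulge list, which holds Krt15, took 0.213% to 2.74% against 0.566% to 1.86%. Of its 13 genes Lgr5, Krt24 and Angptl7 were at 0, against 78, 72 and 9 counts in other wells, while Sox9 was 8-fold, Itgb8 6.75-fold, Fst 6.06-fold, Barx2 4.97-fold and Nfatc1 3.92-fold higher by CPM. A single well gave 51.6% of the counts of Fst. Krt15 was at 9256 CPM against 14653. Melanocyte genes took 0 to 0.00439% and fibroblast and endothelial genes 0 to 0.00339%, with 4 of 6 and 6 of 8 genes at 0. Upper follicle wells held far fewer counts in all, 113910 against 2263650 in P60 without the rule genes. A gene with few counts elsewhere can thus be at 0 here from depth alone, and the share of all genes at 0 is not given here. The part of these cell types in the differences below was not tested.

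Upper follicle wells were set against the other wells of the same animals with edgeR, on counts summed per animal and class with the 3 genes of the rule taken out. Since the wells were chosen from these counts, and their markers with clusters of these wells known, the values are a description with no test. A gene is called past the fold here when its log2 difference is at least 1 in size and has 1 sign in every animal with at least 10 counts, over at least 2 such animals. The planned filter on low counts left 82 genes, of which 3 were higher (3.66%) and 8 lower (9.76%). It worked by class, so a gene could enter through the class where it was high. Defb6 entered through the upper follicle wells alone and Krt1 through the other wells, so their places in this fit are no support. CPM below are scaled to all counts of the summed wells, Krt79, Krt17 and Cst6 included.

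Defb6 stood apart most. In upper follicle wells its level was 2242, 1978 and 983 CPM in the old animals P662, P722 and P758, and 2028, 994 and 1829 CPM in the young animals P57, P59 and P60. In the other wells it was 15.1, 0 and 25.4 CPM in the old animals P662, P722 and P758, and 0, 0 and 24.7 CPM in the young animals P57, P59 and P60. Every animal was higher in its upper follicle wells, and the ranges did not overlap. However, only 3 animals had at least 10 counts of Defb6. Its upper follicle counts were 1 in P59, 2 in P57 and 5 in P722, where the other wells had 0. The log2 difference was 5.77 ± 0.25 (SE). The largest single well gave 15.7% of the 267 counts. Alox12e, an epidermal lipoxygenase, ranged from 1014 CPM in P57 to 7911 in P722 in upper follicle wells, and from 265 in P60 to 1210 in P662 in the others. Each animal was higher in its upper follicle wells, but the ranges over animals overlapped, with 1 count behind the value of P57. Its log2 difference was 2.50 ± 0.29 (SE). Susd2, a membrane protein, was at 2244 ± 1256 CPM (SD, n = 6) against 728 ± 164 CPM (SD, n = 6), with 0 counts in P59, which had under 10 counts of it in all, and the higher value in each of the other 5 animals. Its log2 difference was 1.51 ± 0.24 (SE).

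Among the 8 genes past the fold downward, the spinous keratins lay furthest off. In upper follicle wells Krt1 was 0, 0 and 2227 CPM in the old animals P662, P722 and P758, and 0, 0 and 83.5 CPM in the young animals P57, P59 and P60. In the other wells it was 17839.6, 15737 and 14126 CPM in the old animals P662, P722 and P758, and 20499.5, 9767 and 6198 CPM in the young animals P57, P59 and P60. Krt1 was thus at 0 counts in 4 of 6 animals, and lower in all 6. Krt10, its pairing partner, was at 2500.5 ± 2420.1 CPM (SD, n = 6) against 24487 ± 9957 CPM (SD, n = 6), lower in all 6 animals, with log2 differences of -3.34 ± 0.59 (SE) for Krt10 and -5.39 ± 0.72 (SE) for Krt1. Krt77, another suprabasal keratin, differed by -1.80 ± 0.46 (SE) on the log2 scale. The basal genes among the 8 were Krt14 at -1.17 ± 0.43 (SE), Dst (the hemidesmosome linker dystonin) at -1.70 ± 0.34 (SE), Itga6 (an integrin of the hemidesmosome) at -1.75 ± 0.34 (SE) and Trp63 (the transcription factor p63) at -1.28 ± 0.33 (SE). Junb, a subunit of the AP-1 transcription factor, differed by -2.22 ± 0.35 (SE). Krt5, at -2.07 ± 0.51 (SE), and Col17a1, a hemidesmosome collagen, at -2.83 ± 0.39 (SE), were further from 0 than most of these but were not lower in every animal with 10 counts. In P57 Krt5 was at 5071 CPM in upper follicle wells and 4948 in the others. Krt14 was also not lower in P57, with 3 counts in upper follicle wells and 6 in the others, too few for that animal to count.

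**Figure D3:**
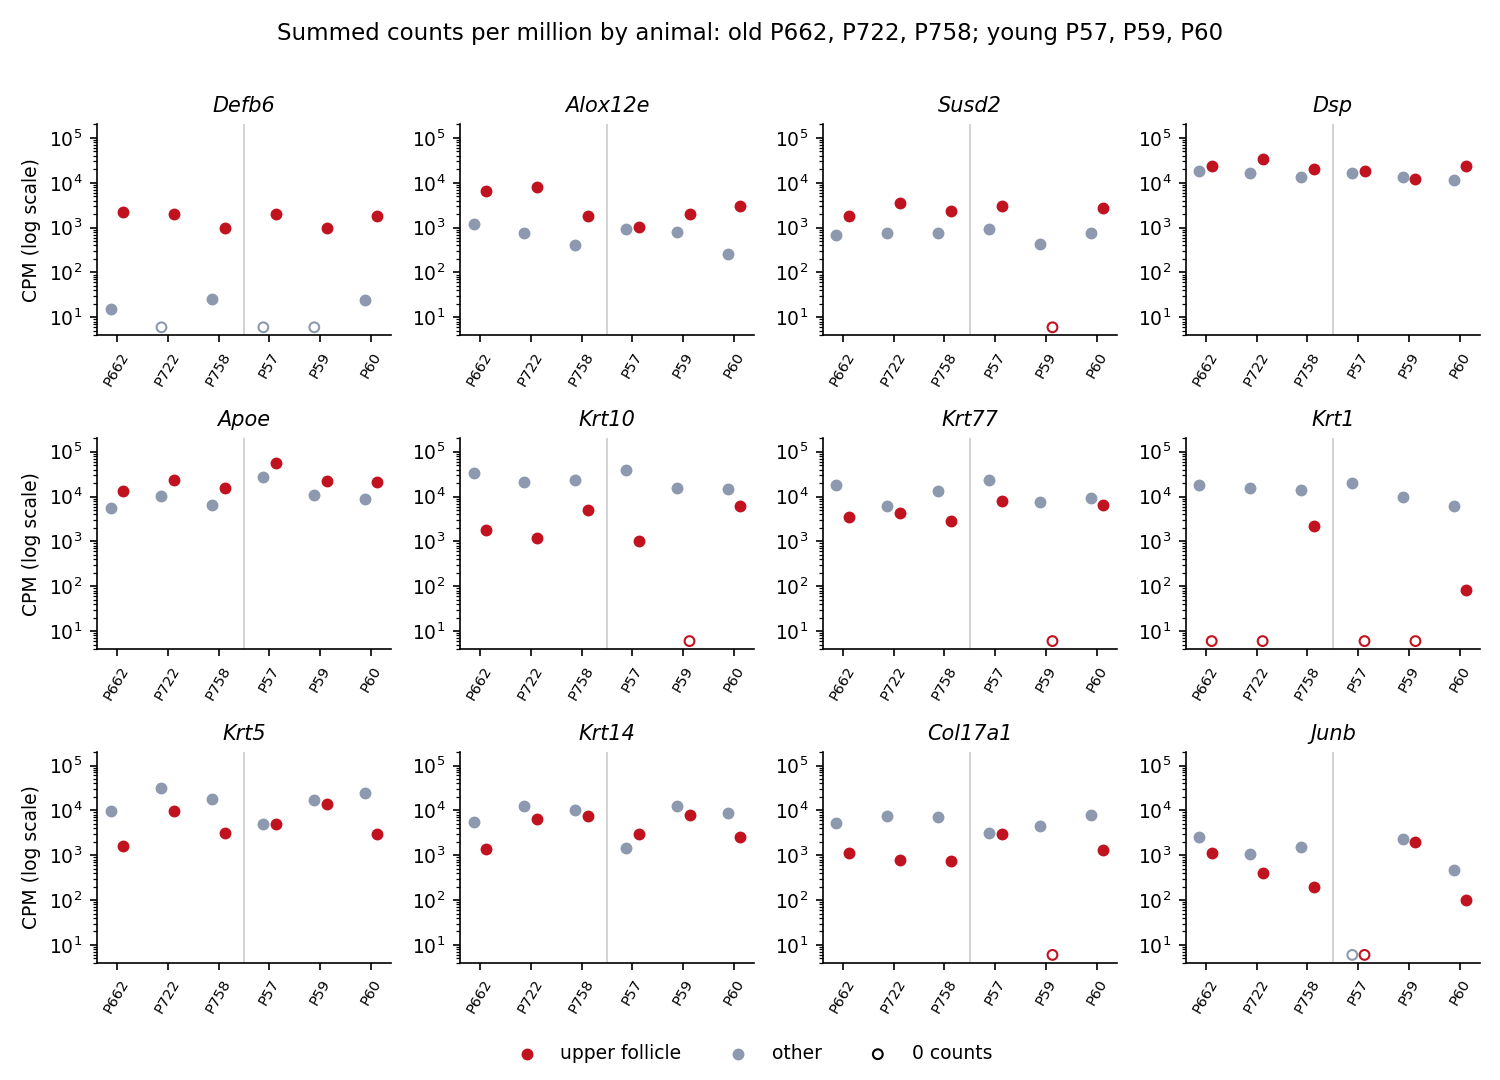
CPM (log scale) of 12 genes, summed over upper follicle wells (red) and other wells (grey) of each animal; open circles at the bottom are 0 counts. Defb6 separates the classes in all 6 animals, though on 1 to 5 upper follicle counts in P57, P59 and P722, whereas Dsp and Apoe overlap between them.

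In the sums, Krt10, Krt77 and Krt14 lay between the spinous and basal comparison classes, here under the wider filter described below. Single wells were mostly low in both, as 62 of 99 had under 1% in Krt5 and Krt14 and under 1% in Krt1 and Krt10. Against 458 spinous wells, defined by Krt1 and Krt10, Krt10 differed by -4.83 on the log2 scale and Krt77 by -3.21, while Krt14 differed by 1.32. Against 1186 basal wells, defined by Krt5, Krt14 and Col17a1, the signs were opposite: Krt10 differed by 2.38, Krt77 by 3.04 and Krt14 by -2.03. These classes were cut on such keratins, so the values only describe where the wells lie. Alox12e was higher than in either class, by 1.28 and 4.98. Against 43 outer bulge wells, available for comparison in P758 and P60 alone, Krt5 differed by -2.81 and Sox9, a follicle transcription factor, by -0.71. Krt14, under the planned filter, went the other way from Krt5, as given in the last section. Sox9 gave 89 counts in 32 of the 99 wells.

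A filter with a wider reach was added after seeing that so few genes were fitted, and it keeps genes with an expected count of at least 5 in the upper follicle wells of 2 animals. Of 1098 genes it called 35 higher (3.19%) and 137 lower (12.5%), with a median log2 difference of -0.14 over all of them. The joint count of 172 (15.7%) became 16 of 69 genes without P758 and 17 of 69 without P60, as few genes passed the filter without the counts of these animals. By size, the 15 leading higher genes of at least 100 CPM were Dsc1, Psapl1, Aqp3, Epcam, Alox12e, Ide, Sgk1, Afdn, Sgpp1, Spink5, Klc3, Aldh3a1, Susd2, Notch3 and Lrig1. A total of 8 of the 15, those from Dsc1 to Afdn, were also past the fold in a fit of all genes of at least 20 CPM, in which the median gene lay at -0.37. Over the whole wider fit, 8 of the 35 higher genes and all 137 lower genes kept their call there.

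Dsc1, a desmosomal cadherin of the suprabasal layers, was at 1256 CPM over all upper follicle wells against 131, 9.57-fold. A single well of P60 gave 41.5% of its counts, and the fold was 6.27 without it. Aqp3, a water and glycerol channel, was at 1582 against 174 CPM, 9.07-fold, and was counted in 45 upper follicle wells. Against outer bulge wells alone, neither Aqp3 nor Afdn was higher, as given in the last section. Psapl1, a saposin-like protein gene, was 7.85-fold higher (1444 against 184 CPM). Epcam, an adhesion protein, was 6.22-fold higher (1036 against 167 CPM). Epcam is also on the Langerhans list, and the part of those cells in its difference was not tested. Spink5, an inhibitor of skin kallikreins, drew 47.8% of its counts from 1 well, and its 3.4-fold difference was 1.99-fold without it. Notch3, a Notch receptor, was 2.92-fold higher and spread over 38 wells.

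Many genes with a large difference, Defb6 included, had too few counts over all wells for the wider filter. They appear in the fit of at least 20 CPM, which was chosen for naming after its values were seen, and which they enter through the class where they are high. After Defb6, the leading genes of at least 100 CPM there were Nfe2l3, Myo5b, Slc5a1, Sprr1a, Slc46a2, Atp6v1c2, Klk7, Nebl, Skint2, Krt23, Cyp1b1, Foxc1, Cldn4 and Gstm5. Foxc1, a forkhead transcription factor, had 85 counts in 34 upper follicle wells and 97 counts in 63 of the other wells, 17.7-fold by CPM. Nfe2l3, a factor of the NRF family, had 49 counts in 26 wells against 19 in 15, and Myo5b, a vesicle motor, 39 in 19 against 18 in 12. These counts lay in many small contributions, with no well giving over 14.3% of either gene. Gstm5, a glutathione transferase, had 115 counts in 31 wells, and Cyp1b1, a cytochrome P450, 46 in 19, against 104 and 32 of the other wells. By contrast, 1 well of P758 gave 56.5% of the counts of Slc5a1, a sugar transporter, and 62.5% of those of Slc46a2, a solute carrier.

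Granular layer genes showed the weight of single wells most. Flg, the filaggrin gene of the cornified layer, gave 387 counts in upper follicle wells against 179 in all others, but every one of them came from the well of P758 with 7328 counts. The same well held 90.7% of the counts of Casp14, a caspase of cornification, and 78% of those of Lor, the loricrin gene. Klk7, a kallikrein that loosens the cornified layer, was broader, with 100 counts in 17 wells and 30% of them in that well. Its level was 628 against 29.2 CPM, 21.5-fold, and 15.8-fold without that well. Sprr1a, a cornified envelope protein, had 47 counts in 16 wells. The granular and cornified list took 2.73% of upper follicle counts in P758, and 0 to 0.399% in the other 5 animals.

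Most genes of the proliferation list gave few or no counts. Mki67 gave 1 count in upper follicle wells against 2488 in others, a ratio of 0.00853 (95% counting interval 0.000216 to 0.0476). Those 2488 counts came from 143 of 1807 wells, or 7.91%, and the interval does not cover such clustering in few wells. Cenpf and Anln, which act in mitosis and cell division, gave 0 counts against 998 and 1195, at least 16.4-fold and 19.7-fold lower at a floor of 3 counts over the group. Top2a, the DNA topoisomerase of dividing cells, gave 4 against 2281, in 4 of 99 and 121 of 1807 wells. Tubb5, a tubulin, and Ccnd2, a cyclin, were still counted in 17 and 13 of the 99 wells, with Tubb5 3.72-fold lower by CPM, and Ccnd2, not past the fold, at 132 against 265 CPM. Of the 5 fitted proliferation genes 4 were lower and 0 higher, beside 12.5% lower and 3.19% higher over all genes, with a median log2 difference of -4.71, or -4.04 with Cenpf at its bound. Of 14 fitted replication-dependent histone genes, which are translated in S phase, 13 were lower (median -3.00), and H1f5, H2ac10 and H2bc15 had 0 counts, at least 18.5-, 15.6- and 10.9-fold lower. Their counts in the others came from 84, 46 and 76 of 1807 wells, so few of 99 wells would carry them at the same rate. The summed share of the proliferation list was below that of other wells in all 6 animals, 0 to 0.101% against 0.0712% to 0.368%.

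Basal genes were lower as a group. Of 11 fitted genes of cell attachment to the basement membrane, basal keratins and p63, 9 were lower and 0 higher, beside 12.5% lower and 3.19% higher over all genes, with a median log2 difference of -1.63. Itgb4, the beta chain of the hemidesmosome integrin, differed by -2.01, and the laminin chains Lama3 and Lamb3 by -1.63 and -1.51. The list took 0.616% to 2.83% of counts in upper follicle wells and 1.32% to 6.87% in other wells, lower in 5 of 6 animals. Antxr1, a collagen-binding receptor, gave 0 counts against 1072, at least 17.7-fold lower, and Igfbp3, which binds insulin-like growth factors, 1 count against 3266, a ratio of 0.0065 (95% counting interval 0.000164 to 0.0362). Ly6a, which encodes Sca-1, gave 1 count against 505, a ratio of 0.042 (95% counting interval 0.00106 to 0.235). In the Sca-1-negative plate 7 of 52 wells met the rule, 13.5%.

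Many immediate early genes, which respond within minutes to stress and growth signals, were lower in these wells. Of 15 fitted out of 20 listed, 9 were lower and 0 higher, beside 12.5% and 3.19% over all genes, with a median log2 difference of -1.97, among them Fos at -2.65, Atf3 at -3.76, Ier2 at -2.21 and Junb at -2.09. Among those too low to be fitted, Egr2 went the other way, at 439.6 against 54.9 CPM in 34 of 99 and 109 of 1807 wells, and Ier3 gave 7 counts, 3.15-fold higher by CPM. The summed share of the list was below that of the other wells in all 6 animals, 0.105% to 1.92% against 0.283% to 3%. Of 7 fitted metallothionein and antioxidant genes 4 were lower, namely Mt1 (-3.50), Mt2, Mt4 and Gpx1 (-1.45). Mt4 had 0 counts against 436, at least 7.18-fold lower, and Mt2 1 count. Further genes at 0 were Krt78, a suprabasal keratin, Ndufa4l2 and Ppp1r15a, which acts in the stress response, at least 10.1-, 12.1- and 5.35-fold lower.

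The remaining lists are set beside the same 3.19% of genes higher and 12.5% lower over all 1098. Of 13 fitted spinous genes 2 were higher, Dsc1 and Notch3 (1.40), and 3 lower, Krt1, Krt10 and Mt4, with a median of -0.03. Sbsn, a secreted protein of the suprabasal layers, was counted in 55 of the 99 wells and was at 3724 against 1076 CPM. Of 6 fitted Notch and Wnt genes 2 were higher, Notch3 and its target Hes1 (1.01), and 1 lower, the ligand Jag2 (-1.96). Of 17 junction genes 2 were higher, Dsc1 and Cldn1 (1.22), a tight junction claudin, and 1 lower, the desmoglein Dsg2 (-1.20). Spink5 and Spint2 (1.04), both protease inhibitors, were the 2 fitted genes of the kallikrein and serine protease list, and both were higher. Of 5 fitted antigen presentation genes 0 were past the fold in either direction. Of 8 S100 and annexin genes S100a6 and S100a10 were lower, with 0 higher. Of 21 listed transcription factors 9 were fitted, of which Gata3, Klf5 and Trp63 were lower and 0 higher. Among those not fitted were Gata6, Foxc1 and Sox9, given above, and Sox7, Runx1 and Grhl3, which were 12.1-, 5.71- and 4.29-fold higher by CPM. Of 6 fitted cytosolic ribosomal protein genes and 6 mitochondrially encoded genes 0 were past the fold.

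**Figure D4:**
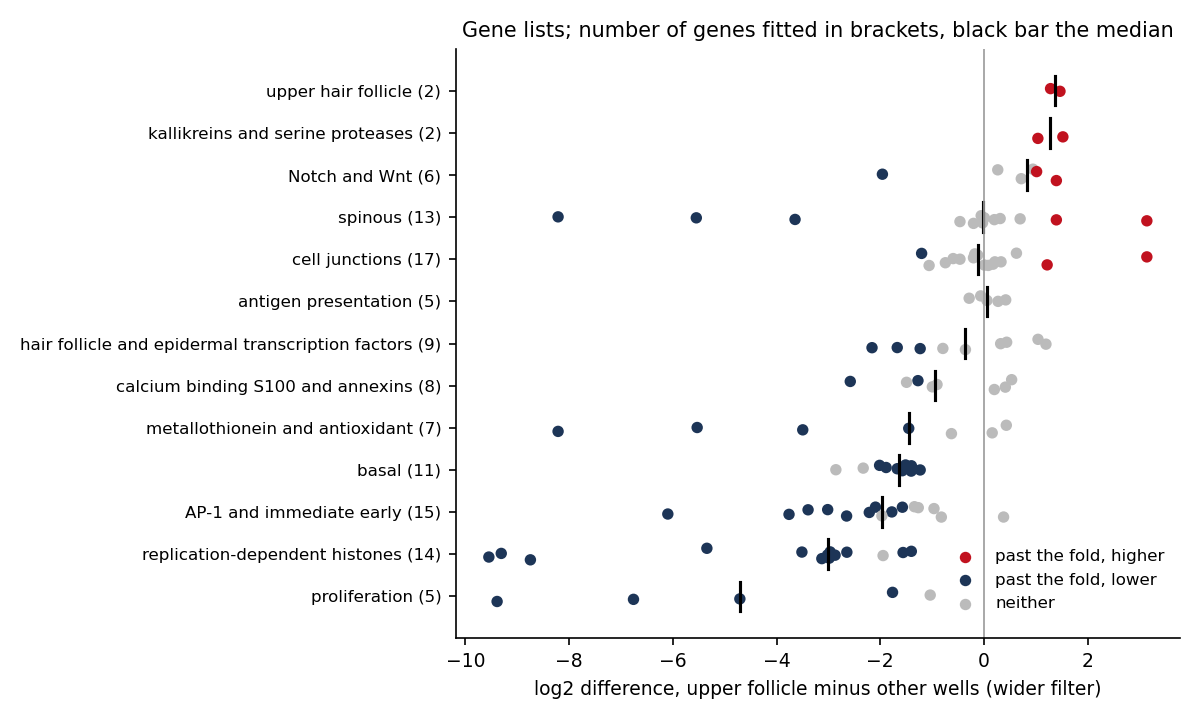
log2 difference of upper follicle minus other wells for each fitted gene of 13 lists (points), with the list median (bar), under the wider filter. Proliferation, histone, immediate early and basal genes lie mostly left of 0, and values near -8 or below belong to genes with 0 counts in upper follicle wells.

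The 99 wells were not uniform. Krt79 was the most counted gene of the rule in 72 wells, Krt17 in 22 and Cst6 in 3, with ties in 2. Wells led by Krt17 held more Krt5 and Krt14, with 17369 CPM of both together against 5531 in wells led by Krt79. The same order held within P60 (11527 against 5004) and within P758 (24512 against 8283). Krt15 went the other way in the sum, at 1865 CPM against 10289.9, in 9 of 22 and 46 of 72 wells. It was at 621 against 11903 within P60, 3404 against 4649 within P758 and 4622.5 against 7561 within P722. In P662 (5263 against 603) and P59 (15748 against 0) the order was reversed, on few counts. Defb6 was lower in wells led by Krt17, at 408 CPM against 1836 in wells led by Krt79, in 5 of 22 and 39 of 72 wells. Krt10 was at 933 against 6203 CPM, in 5 of 22 and 33 of 72 wells. Among the wells led by Krt79, 2 deep wells of P60, of 17059 and 10074 counts, had 1.37% and 2.67% of their counts in Krt10. Gata6 was counted in 1 of 22 against 16 of 72 wells. Of these 16, 13 were from P60, where wells led by Krt79 had a median of 1650 counts and those led by Krt17 701. Postn, a matrix protein of the outer bulge, was counted in 6 of 22 wells led by Krt17 and in 3 of 72 led by Krt79. Over all 99 wells, 23 had at least 1% of counts in Krt5 and Krt14 alone, 11 in Krt1 and Krt10 alone, 3 in both and 62 in neither, whereas 179 of 1807 other wells had neither.

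**Figure D5:**
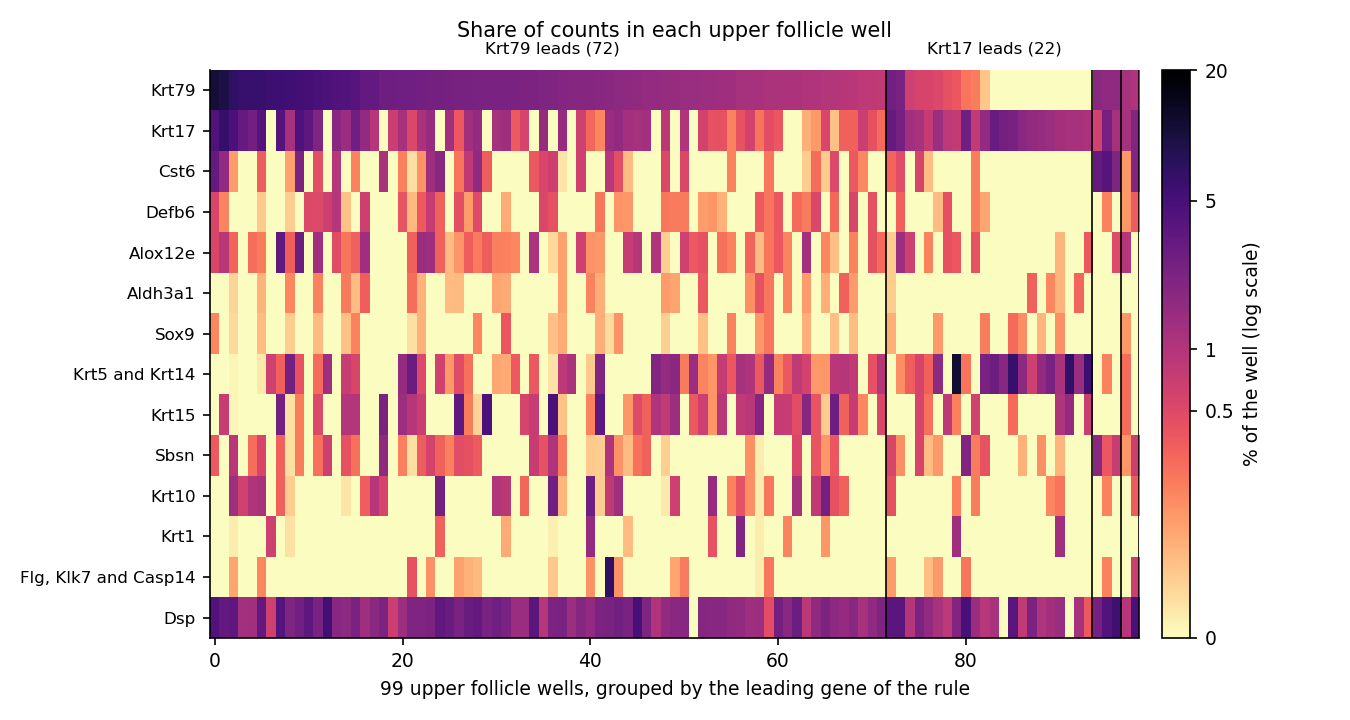
Percent of each upper follicle well's counts (log colour scale) in 14 genes or gene sums, wells in columns grouped by the leading gene of the rule. Wells led by Krt17 show more Krt5 and Krt14 and less Defb6, and 1 column, the well with 7328 counts, stands out in Flg, Klk7 and Casp14.

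Within upper follicle wells, age made no difference that passed the test. Of 20 genes with enough counts 0 were called by edgeR's quasi-likelihood test with Benjamini-Hochberg adjustment at 0.05 (0%), and 4 had an unadjusted p under 0.05. DESeq2 and limma-voom also called 0. Apoe, the lipid carrier apolipoprotein E, came closest. Its level in upper follicle wells was 13453, 22943 and 15590.2 CPM in the old animals P662, P722 and P758, and 55781, 21869 and 21522 CPM in the young animals P57, P59 and P60. Old wells had 17329 ± 4978 CPM (SD, n = 3) and young wells 33057 ± 19680.1 CPM (SD, n = 3), overlapping between P722 and the young animals P59 and P60. The log2 difference of old minus young was -0.80 ± 0.26 (SE) with edgeR adjusted p = 0.054. Apoe was called without P60 (log2 difference -1.12, edgeR adjusted p = 1.65e-04), which gave the 1 call among the 6 runs without an animal. Krt15, a keratin known from bulge and basal layers, was at 3814 ± 2457 CPM (SD, n = 3) in old and 13371 ± 10922 CPM (SD, n = 3) in young animals. Dsp, the desmoplakin gene, was at 25794 ± 7309 CPM (SD, n = 3) and 17864 ± 5750.5 CPM (SD, n = 3), Alox12e at 5416 ± 3181 CPM (SD, n = 3) and 2014 ± 1013 CPM (SD, n = 3), and Fcgbp, which encodes a mucin-like secreted protein, at 6742 ± 4508 CPM (SD, n = 3) and 2908 ± 2771 CPM (SD, n = 3). For Krt15, Dsp and Alox12e edgeR's adjusted p was 0.242, and for Fcgbp 0.246.

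The difference between upper follicle and other wells was also not shown to change with age. Of 82 genes 0 were called for the interaction of age and class (0%), and 3 had an unadjusted p under 0.05. The smallest p values were for 6430548M08Rik, whose interaction was 1.57 ± 0.41 (SE) on the log2 scale with edgeR adjusted p = 0.105, and Anxa1, an annexin, at -2.32 ± 0.63 (SE) with edgeR adjusted p = 0.105. In upper follicle wells Anxa1 was at 752 ± 286 CPM (SD, n = 3) in old and 4233 ± 3603 CPM (SD, n = 3) in young animals, and in other wells at 2996 ± 801 CPM (SD, n = 3) and 2467 ± 762 CPM (SD, n = 3). A single well of P60 gave 40.1% of the upper follicle counts of Anxa1. Tmem45a, Cltc and Ly6d followed with an edgeR adjusted p of 0.942 each. Without P59 the interaction test called 4 genes, Anxa1 among them. On simulated counts with 20 changed genes, the interaction test found 0% of 2-fold, 40% of 4-fold and 95% of 8-fold changes. The test within upper follicle wells, with 5 changed genes of 20, found 0%, 100% and 100%, with 1 false call at 4-fold. These simulations set the dispersion (spread beyond counting error) at 0.1. Some measured genes spread widely between animals, with an SE of 1.42 for Krt5 in the age test, so changes of such genes could be missed at these folds.

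Summed over each of the 25 gene lists, 0 lists passed a two-sided exact permutation test between the ages in upper follicle wells after adjustment over the lists (adjusted p = 1 for each). The granular and cornified list reached the smallest raw p that the design allows, 0.1, with 1.17% ± 1.35 of counts in the old (SD, n = 3) and 0.127% ± 0.141 in the young (SD, n = 3). The old mean rested on P758 at 2.73%, where 1 well of 7328 counts gave all Flg counts, beside 0.379% in P662 and 0.399% in P722, and the highest young animal was P60 at 0.279%. The upper hair follicle list was at 0.438% ± 0.115 and 0.385% ± 0.168 (exact permutation p = 0.7), and the outer bulge list at 0.548% ± 0.316 and 1.6% ± 1.04 (exact permutation p = 0.2).

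Both plates outside the old and young set were read with the same measure. The rule was met by 10 of 230 wells of the nuclease plate and 7 of 52 of the Sca-1-negative plate. The nuclease plate shares its day with P758 and may share its animal, and its wells differ in nuclease treatment. With the plate as a block, edgeR tested 92 genes and called 5 higher (5.43%) and 4 lower (4.35%) in upper follicle wells, with Benjamini-Hochberg adjustment at 0.05. Each plate gave a single sum per class, with no replicate within a plate, so these p-values lean on a spread shared across genes. The higher genes were Alox12e (log2 difference 3.26 ± 0.81, SE, edgeR adjusted p = 0.00353), Adgrl2 (an adhesion receptor), Susd2, Ctnnb1 (beta-catenin) and Dsp. Alox12e gave 23 counts in upper follicle wells and 38 in others of the nuclease plate, and 31 and 3 in the Sca-1-negative plate. Susd2 gave 17 against 79 and 8 against 2 (log2 difference 1.77 ± 0.59, SE, edgeR adjusted p = 0.0424). The lower genes were Nr4a1 (a nuclear receptor of the immediate early kind), Fos, Zfp36 (an RNA decay factor) and Itgb4. Fos gave 0 against 237 counts in the nuclease plate and 5 against 29 in the other (log2 difference -3.22 ± 0.91, SE, edgeR adjusted p = 0.0140), and Nr4a1 0 against 130 and 0 against 13. These calls depended on the filter, as 0 genes were called with no filter or with a minimum of 20 CPM, 5 with DESeq2 and 1 with wells of at least 500 counts. All 9 had the same sign with no filter. The filter on low counts worked by class, and all of the called genes but Dsp passed it only through the class where they were high. Without the rule genes, Adgrl2 was at 1101 and 2345 CPM in upper follicle wells against 142 and 179 in the others. Nr4a1 was at 0 and 0 against 1089 and 1166 CPM. The p-values of these genes are thus given as a description.

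Of the 11 genes past the fold in the 6 animals, 10 had at least 10 counts in the nuclease plate and 9 of these had the same direction. In the Sca-1-negative plate 9 had 10 counts and 7 the same direction. Krt10 was the exception in both plates, with 183 counts in upper follicle wells against 2276 in the nuclease plate, and 41 against 38 in the Sca-1-negative plate, which are 22393 against 19064 CPM and 6869 against 3410 CPM once the rule genes are left out. Krt77 was the other exception, with 50 against 14 counts in the Sca-1-negative plate. Defb6 gave 14 counts in the 7 upper follicle wells and 0 in the others of that plate, and 6 against 1 in the nuclease plate. Of the 35 higher genes under the wider filter, 28 were also higher in the nuclease plate, and 7 of the 9 with 10 counts were so in the Sca-1-negative plate. Of the lower genes 116 of 131 and 12 of 14 were also lower. The share of all fitted genes that were higher or lower in these plates is not given here. The counts of genes with the same direction are therefore a description. In the 6 animals 451 of all 1098 fitted genes had a positive difference.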

How the data were processed

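Ribosome footprints of single epidermal cells were measured by small-RNA sequencing in 12 plates, 1 cell per well. The deposited tables hold counts per gene and well, as whole numbers for 22416 genes, made by the authors with fastp, Bowtie2, STAR, UMI-tools and featureCounts on GRCm38.p6, per the submitters' processing notes. Their versions and settings were not given in the sources used, nor was any well filter, and near-identical genes may share or lose reads. Counting adds error that the exact intervals (Clopper-Pearson or Poisson, 95%) cover, and they cover nothing else.

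Wells of at least 100 counts were kept, and counts were summed per animal and class without Krt79, Krt17 and Cst6. Separate mice are assumed from the day labels. If this fails, p-values measure only the spread between plates. Sums were fitted with edgeR 4.0.16 in R 4.3.3 (TMM, filterByExpr, robust quasi-likelihood, the animal as a block between classes, Benjamini-Hochberg at 0.05). The SE is the log2 difference divided by the root of the F statistic. limma 3.58.1, DESeq2 1.42.0, other rules, filters and classes, thinning and leaving out each animal were alternatives. Shares were compared by exact permutation in scipy 1.17.1. The fits were tested on simulated counts. The members, gene lists and tests were chosen with earlier results of these data known.

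Named genes were those past the fold in the 82-gene fit, the 15 largest higher and 10 largest lower of at least 100 CPM under the wider filter, the 5 with the smallest p in each age test and all calls in the other plates. A further 15 higher genes came from the fit of at least 20 CPM. Other genes were named as members of a list or for the comparison of classes. Comparison wells had at least 3 counts in the genes that define them and at least 2% (spinous) or 1% (basal, and bulge by Postn, Cd34, Lgr5 and Lhx2) of their counts there, and T cell wells had 3 counts of Cd3 genes and Trdc. Doublets were not called, since a well holds 1 sorted cell. Wells of the Sca-1-negative plate could not be mapped to ages, so it was used whole. Of 22416 symbols 21754 matched RefSeq, from which coordinates and promoters come.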

Additional observations from a re-analysis of the deposited data

Results flagged for a closer look

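The young plate Young10 stood apart from the other 4 young plates in its share of upper follicle wells, 23.1% against 4.20% to 8.33%. Its gap to the nearest plate was 0.781 of the range over the 5 young plates, above the critical value of 0.71 in Dixon's test at 95%, which chance alone exceeds in about 1 of 20 groups. The value rests on 3 of 13 wells, with an exact 95% interval of 5.04% to 53.8%. Young10 is also the whole of P57.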

How the results depend on the processing

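The planned 82-gene count of 11 genes past the fold moved with the number of genes tested: it was 2473 of 15870 with no filter, 1429 of 6417 at 20 CPM and 172 of 1098 with the added expected count of 5. It was 1738 of 7220 with wells of at least 500 counts, which leaves P758 and P60 alone. It was 30 of 154 with 5 counts and 2%, 34 of 177 with Krt79 alone, 37 of 186 without Krt17 and 27 of 160 without the deepest well of each animal (an added setting). It was 7 of 31 against spinous and 215 of 498 against bulge wells. When 1 animal was left out it ran from 6 of 48 (P758) to 42 of 221 (P57). The wider count of 172 was 301 of 1150 against basal wells and 340 of 1217 against bulge wells. It ran from 16 of 69 without P758 to 203 of 1098 without P662. Fewer genes were tested without P758 or P60 (69 each), and the cause of the other shifts was not tested. The age test within upper follicle wells called 0 to 1 genes without 1 animal and 0 otherwise. The age by class test called 0 to 4 without 1 animal, 1 with Krt79 alone, 1 without Krt17 and 0 otherwise. In the other plates the 9 calls became 0 with no filter, 0 at 20 CPM, 1 at 500 counts and 5 with DESeq2. The age difference in the share of wells turned to 2.83 at 500 counts and 0.864 at 300 thinned counts, and ran from -6.24 to 3.52 without 1 animal. Among genes, under the planned filter, which gives other values than the wider one used for these classes in the report, Krt14 turned to 1.86 against spinous wells. Against bulge wells Krt14 turned to 1.17, Krt10 to 3.98, Krt1 to 1.77, Krt77 to 4.90 and, under the wider filter, Aqp3 to -0.14 and Afdn to -0.25. Of the other values for named genes, 414 kept their direction and call or stayed within the spread, 494 moved, 29 fell short of the threshold and 2 newly passed it. Only P758 and P60 kept enough wells at 500 counts, so no age test was run there. P57 and P59 hold under 1000 upper follicle counts each without the rule genes, which limits what the 6 animals can show for low genes. No paired analysis was possible because the ages share no animal.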
